A study of Mus musculus with 12 samples.

Results

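The livers of Pml KO and Pml wt mice were compared 6 h after an overdose of acetaminophen. The comparison used the 4 arrays labelled with that time, 2 of KO liver and 2 of wt liver, of the 12 arrays in the series, and ran over the 17052 genes that had a probe set with exactly 1 gene symbol and a mean log2 intensity of at least 5. KO mice lacked Pml and wt mice carried it. The allele and the deleted part of the gene are not given in the sources used here. All mice were BALB/cByJ females aged 2.5 months, fed without restriction, and those killed at 6 h had received 300 mg/kg acetaminophen by intraperitoneal injection. The remaining 8 arrays were of KO and wt liver at 2 h and of KO and wt liver of untreated mice, 2 each. They entered the same fit and are set beside the 6 h values. A vehicle injection is not given for the untreated mice, and the labels do not say that each array came from a separate mouse, so the p-values cover the spread among these samples, which may be technical.

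PML is the protein that builds PML nuclear bodies, spherical assemblies in the nucleus that recruit partner proteins through the small modifier SUMO and take part in p53 signalling, DNA repair, interferon responses and the handling of oxidative stress. Acetaminophen in overdose is oxidised in hepatocytes to a reactive quinone imine that consumes glutathione, damages mitochondria and kills cells around the central vein. Surviving liver cells then switch on immediate early genes and chaperones, chemokines draw neutrophils from the blood, and glucose and lipid metabolism are reset. The gene lists below follow those steps.

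Each array measured total RNA of liver on the Affymetrix Mouse Gene 1.1 ST platform, and the values are log2 of the deposited normalized intensities, whose median lay between 79.9 and 90.1 over the 12 arrays. The number of arrays limits the precision. Hepatocyte markers were high in all 4 arrays, with summed intensities of 77448 and 77474 in KO liver, against 82433 and 82628 in wt liver over 11 genes. Pml itself had a log2 intensity of 7.09 and 7.16 in KO liver, against 7.87 and 7.88 in wt liver, groups that did not overlap. The difference of -0.75 ± 0.24 (adjusted p = 0.0715) did not pass the test. Pml at 2 h had 7.11 and 7.50 in KO liver, against 7.82 and 7.92 in wt liver, and in untreated liver 7.10 and 7.97 in KO liver, against 8.18 and 8.46 in wt liver. The probe set used for Pml may lie outside the deleted part. Across the tested genes the array of KO replicate 1 correlated at 0.986 with KO replicate 2 and at 0.984 with wt replicate 2, while KO replicate 2 and wt replicate 1 were farthest apart at 0.958. These are correlations across genes, which are not independent replicates.

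At 6 h, 1538 genes were called at an adjusted p under 0.05, which is 9.02% of those tested. In KO liver 698 were higher (4.09%) and 840 lower (4.93%). The falls were the larger changes: 251 genes were at least 2-fold lower and 56 at least 2-fold higher in KO than in wt liver. The median difference over all tested genes was 0.0078 on the log2 scale. The deposited values were normalized, so this median cannot show whether the middle of the distribution shifted. In every called gene both KO arrays lay on the same side of both wt arrays, as they did in 29.7% of tested genes upward and 27.0% downward. In untreated liver the same fit called 1 gene between KO and wt (660 at an unadjusted p under 0.05), and at 2 h it called 342. The median difference over all tested genes was -0.0071 in untreated liver and -0.0988 at 2 h.

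**Figure D1:**
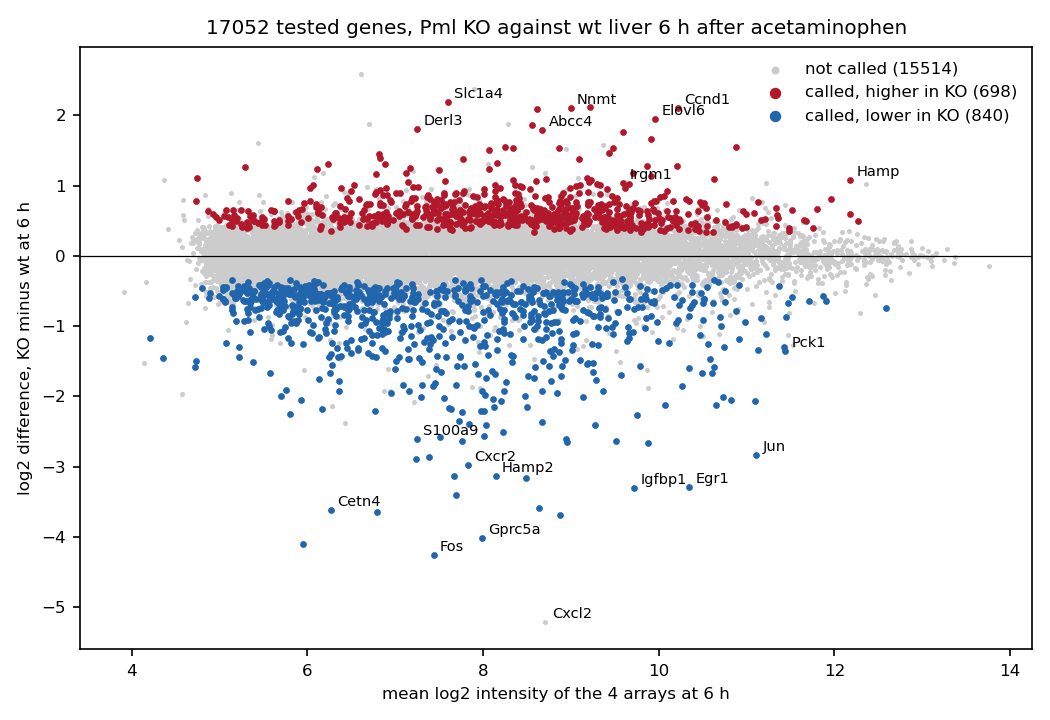
Log2 difference between KO and wt liver at 6 h (vertical axis, KO minus wt) against the mean log2 intensity of the 4 arrays (horizontal axis) for the 17052 tested genes. The 840 genes called lower reach -4.26 (Fos) and the 698 called higher reach 2.19 (Slc1a4), while Cxcl2, at -5.20, was not called.

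The number of calls rested on single arrays. It was 1691 without KO replicate 1 and 1494 without wt replicate 2, but 221 without KO replicate 2 and 172 without wt replicate 1, the pair of arrays that lay farthest apart. A fit of the 4 arrays at 6 h alone called 142 genes. The calls of 122 genes, 28 higher and 94 lower in KO liver, held in all 4 fits with 1 array at 6 h left out. Genes of this kind are described first in most lists below. Of 252 genes named by rule, 119 lost their call in the fit of the 4 arrays alone. The 252 include genes that were not called with all arrays and had no call to lose. The share of calls lost was therefore larger than 119 of 252. The fit of the 4 arrays alone is given below only where no left-out array ended the call. Errors after ± are standard errors of the fit, and each difference is KO minus wt on the log2 scale between means of 2 arrays unless stated. Counts of called members in every list below are to be read beside the 4.09% of all tested genes called higher and the 4.93% called lower.

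**Figure D2:**
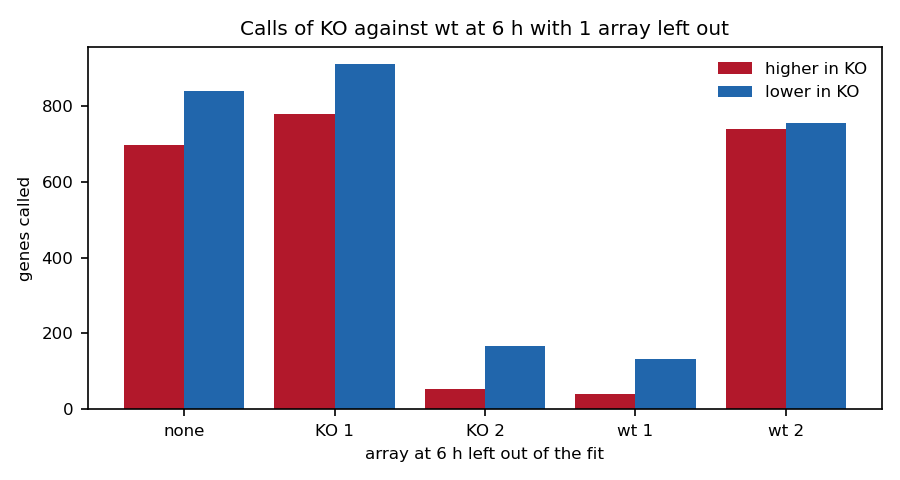
Number of genes called higher or lower in KO liver (vertical axis) with all arrays and with each array at 6 h left out (horizontal axis). Without KO replicate 2 there were 54 higher and 167 lower, and without wt replicate 1 there were 41 higher and 131 lower, against 698 and 840 with all arrays.

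Immediate early genes encode transcription factors and feedback regulators that a stimulus induces within minutes, before new protein is made. Of 37 tested members, 22 were called lower in KO liver, 1 higher and 14 were not called, where 4.93% of all tested genes were lower, and the median difference was -1.62, beside 0.0078 for all genes. The 22 were Fos, Fosl2, Jun, Junb, Egr1, Egr2, Ier2, Ier3, Ier5, Myc, Nr4a1, Nr4a3, Klf6, Btg2, Zfp36, Dusp1, Dusp4, Maff, Ccn1, Ccn2, Srf and Csrnp1, and the 1 higher was Klf10, a repressor induced by TGF-beta. Lower members numbered 26 without KO replicate 1, 9 without KO replicate 2, 6 without wt replicate 1 and 17 without wt replicate 2, and the call of Klf10 was lost in each of these 4 fits and with the replicate block, which gave 0 higher members.

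Fos, a subunit of the AP-1 transcription factor, had a log2 intensity of 5.61 and 5.00 in KO liver, against 10.12 and 9.02 in wt liver. The groups lay far apart, and Fos was 19.2 times lower in KO liver, a difference of -4.26 ± 0.32 (adjusted p = 0.000162). Jun, its AP-1 partner, had 10.40 and 8.97 in KO liver, against 12.51 and 12.54 in wt liver, a difference of -2.84 ± 0.38 (adjusted p = 0.0041). The zinc finger factor Egr1 had 9.69 and 7.72 in KO liver, against 12.04 and 11.95 in wt liver, a difference of -3.29 ± 0.44 (adjusted p = 0.0041). In all these genes KO replicate 2 was the lowest array, and KO replicate 1 lay between it and the wt arrays. Ier2, a small nuclear protein, differed by -2.39 ± 0.22 (adjusted p = 0.000613), Egr2 by -2.01 ± 0.25 (adjusted p = 0.00307) and Zfp36, which speeds the decay of cytokine mRNAs, by -2.13 ± 0.29 (adjusted p = 0.0041). The calls of Fos, Jun, Ier2 and Egr2 held under every alternative tried, and those of Egr1 and Zfp36 ended only in the fit of the 4 arrays alone (adjusted p = 0.0598 and 0.0501).

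Other members were called with less margin. The nuclear receptor Nr4a1 had 6.63 and 5.35 in KO liver, against 9.74 and 9.05 in wt liver, a difference of -3.41 ± 0.64 (adjusted p = 0.014). The antiproliferative gene Btg2 had 9.24 and 7.85 in KO liver, against 11.59 and 10.83 in wt liver, a difference of -2.67 ± 0.39 (adjusted p = 0.00572). The growth regulator Myc had 10.01 and 8.66 in KO liver, against 11.33 and 11.04 in wt liver, a difference of -1.85 ± 0.44 (adjusted p = 0.0308). All 3 genes kept KO and wt arrays apart, but the call of Btg2 ended without wt replicate 1 (adjusted p = 0.0581), that of Nr4a1 without KO replicate 2 or wt replicate 1 (0.103 and 0.117) and that of Myc without KO replicate 2, wt replicate 1 or wt replicate 2 (0.183, 0.188 and 0.058).

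The pattern at 2 h was not that at 6 h. Fos at 2 h had 11.29 and 11.45 in KO liver, against 9.47 and 9.74 in wt liver, so KO stood above wt at that time, and in untreated liver 3.98 and 3.67 in KO liver, against 4.35 and 3.93 in wt liver. Over the 37 members the median difference between KO and wt liver was 0.59 at 2 h and -0.07 in untreated liver. The summed intensity of the list was 26693 and 12128 in KO liver at 6 h, against 57116 and 48536 in wt liver, and at 2 h it was 63500 and 67380 in KO liver, against 40770 and 41968 in wt liver. In untreated liver the sum lay between 6004 and 7778 in all 4 arrays, so at 6 h the KO arrays stood between the untreated level and the wt level.

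**Figure D3:**
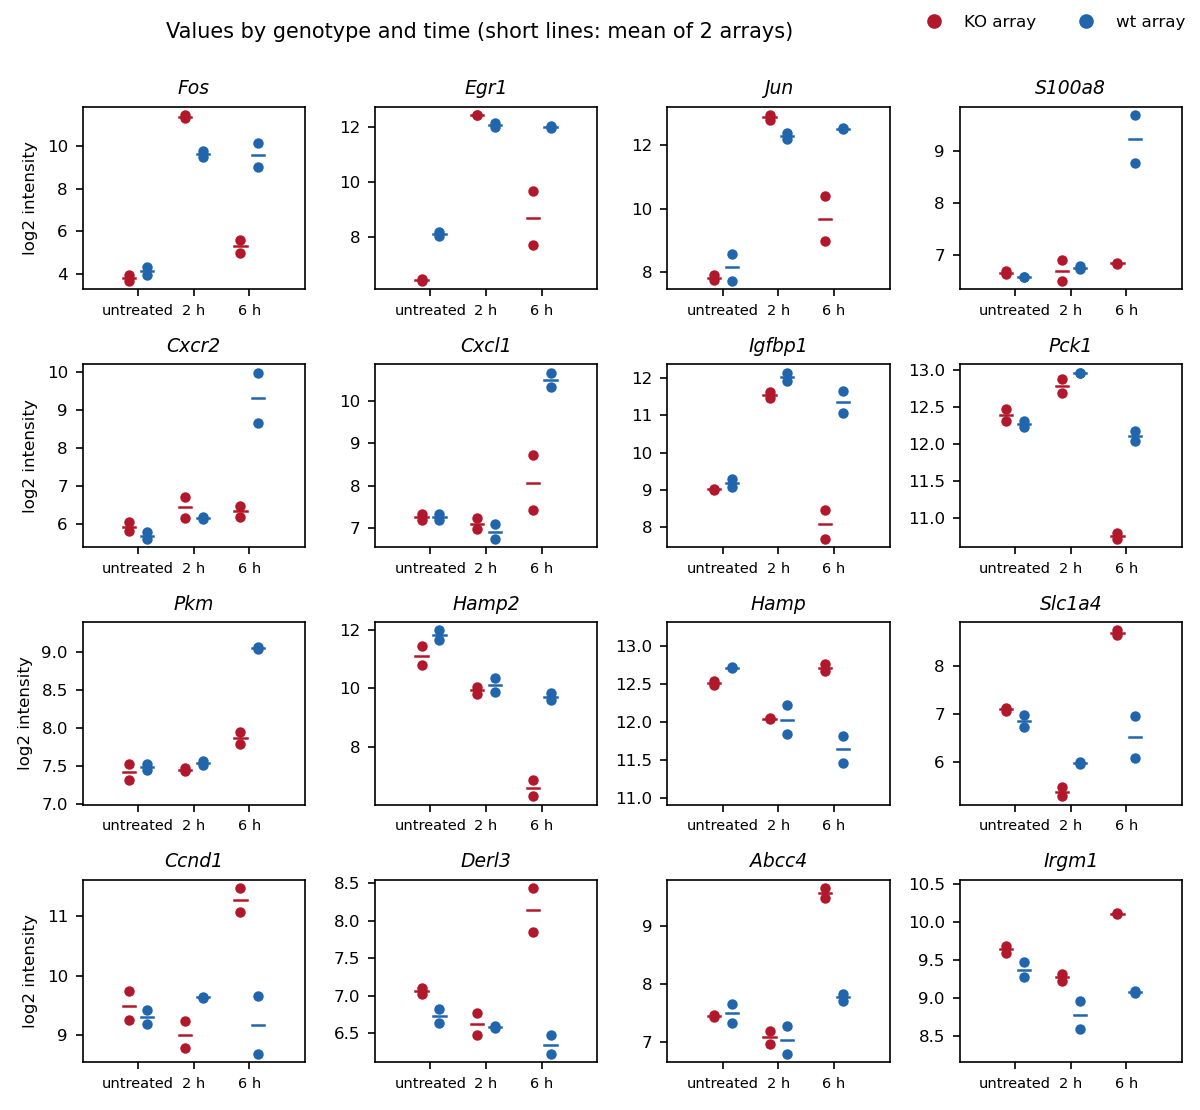
Log2 intensity (vertical axes) of 16 genes in untreated liver, at 2 h and at 6 h (horizontal axes), with KO arrays to the left of wt arrays and a short line at the mean of 2 arrays. Fos, Egr1 and Jun are near or above the wt level in KO liver at 2 h and below it at 6 h, while S100a8 and Cxcr2 stand out in wt liver at 6 h alone.

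The promoters of 3 of these genes are shown because they share the core letters CGTCA of the cyclic AMP response element (CRE), which CREB-family factors bind. Each window runs from 250 bases before to 50 bases after the annotated start, 5′ to 3′ along the gene, from RefSeq on GRCm38.p6. It lies at chr12:85473640-85473939 on the plus strand for Fos, chr15:101266596-101266895 on the plus strand for Nr4a1 and chr1:134079106-134079405 on the minus strand for Btg2. Capitals mark CRE cores on either strand and, in Fos, the TATA box TATAAA.
Fos: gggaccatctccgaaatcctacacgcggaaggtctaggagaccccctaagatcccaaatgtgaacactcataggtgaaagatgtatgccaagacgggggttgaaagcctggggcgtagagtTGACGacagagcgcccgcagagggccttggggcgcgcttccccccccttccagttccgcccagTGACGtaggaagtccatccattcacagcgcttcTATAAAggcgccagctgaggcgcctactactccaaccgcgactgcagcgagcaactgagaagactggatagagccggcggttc
Nr4a1: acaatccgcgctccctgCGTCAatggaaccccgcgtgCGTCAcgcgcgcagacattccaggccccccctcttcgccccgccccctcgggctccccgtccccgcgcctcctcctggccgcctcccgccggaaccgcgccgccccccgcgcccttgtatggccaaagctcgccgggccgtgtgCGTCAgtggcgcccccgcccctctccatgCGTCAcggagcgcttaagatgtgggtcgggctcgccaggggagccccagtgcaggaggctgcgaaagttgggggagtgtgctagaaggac
Btg2: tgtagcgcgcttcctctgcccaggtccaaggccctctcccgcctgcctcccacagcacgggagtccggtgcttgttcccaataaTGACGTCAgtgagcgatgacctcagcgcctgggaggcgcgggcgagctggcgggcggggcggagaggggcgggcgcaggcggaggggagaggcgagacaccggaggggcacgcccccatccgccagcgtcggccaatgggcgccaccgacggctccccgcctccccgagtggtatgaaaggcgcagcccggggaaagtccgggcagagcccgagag
Fos held 2 CRE cores and 1 TATA box, Nr4a1 held 4 cores, and in Btg2 the 2 cores overlap in TGACGTCA. Of the 22 immediate early genes called lower, 17 had a window in the table, and 9 of these held a CRE core (52.9%), against 21.0% of all 27018 promoters of the same length. The CArG box of serum response factor was in 2 of 17, against 1.57% of all, and the AP-1 site TGANTCA in 0 of 17, against 7.94%. The GC box GGGCGG, added after the values were seen, was in 14 of 17 (82.4%), against 35.9% of all. It was not particular to these genes, being in 8 of 9 windows (88.9%) of the endoplasmic reticulum genes called higher. Shares in the immediate early genes that were not called were not counted, so no motif is tied to the fall in KO liver. A match is a stretch of letters and not a measured binding site.

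Neutrophils reach the damaged liver some hours after acetaminophen, and their marker genes were lower in KO liver. Of 22 tested neutrophil markers, 12 were called lower, 0 higher and 10 were not called, and the median difference was -1.47. The 12 were S100a8, S100a9, Cxcr2, Csf3r, Mmp8, Mmp9, Retnlg, Itgam, Trem1, Hdc, Clec4d and Il1b. The summed intensity of the list was 4498 and 5277 in KO liver, against 9477 and 6915 in wt liver. Only 4 of the 22 had a mean log2 intensity of at least 7, so the sum weighs a few bright genes most. In bulk liver, fewer cells of a type and less RNA per cell cannot be told apart. Erythroid markers moved the same way, with summed intensities over 6 genes of 491 and 515 in KO liver, against 2163 and 1359 in wt liver. Their sums did not overlap at 2 h either, at 619 and 757 in KO liver, against 1189 and 1527 in wt liver. Their median difference was -0.70 at 2 h and -0.40 at 6 h. Only 2 of the 6 erythroid genes had a mean log2 intensity of at least 7, so this sum too weighs a few bright genes most. The neutrophil sums overlapped at 2 h, at 4287 and 4802 in KO liver, against 4567 and 5310 in wt liver. The median difference of the neutrophil list at 2 h was -0.05. The part of erythroid RNA in the neutrophil result was not tested. Lower neutrophil markers numbered 14 without KO replicate 1, 6 without KO replicate 2, 5 without wt replicate 1 and 13 without wt replicate 2.

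Cxcr2, the receptor through which neutrophils sense CXC chemokines, had a log2 intensity of 6.47 and 6.20 in KO liver, against 9.98 and 8.65 in wt liver, a difference of -2.98 ± 0.34 (adjusted p = 0.00163). S100a8 had 6.85 and 6.82 in KO liver, against 9.70 and 8.78 in wt liver, and S100a9, its partner in the calcium-binding complex calprotectin, had 6.18 and 5.71 in KO liver, against 8.83 and 8.28 in wt liver. These 2 genes differed by -2.40 ± 0.24 (adjusted p = 0.000777) and -2.61 ± 0.26 (adjusted p = 0.000777). In the 8 arrays of the other groups S100a8 lay between 6.49 and 6.90, so KO liver at 6 h stood in that range and wt liver alone stood above it. Csf3r, the receptor for granulocyte colony-stimulating factor, differed by -2.17 ± 0.27 (adjusted p = 0.00307) and Trem1, which amplifies inflammatory signals, by -2.18 ± 0.29 (adjusted p = 0.00392). The calls of these 5 genes held under every alternative tried. Mmp8, the neutrophil collagenase, had 5.42 and 4.51 in KO liver, against 9.71 and 7.52 in wt liver, a difference of -3.65 ± 0.74 (adjusted p = 0.0187), and Retnlg differed by -2.89 ± 0.58 (adjusted p = 0.0176), but both calls ended without KO replicate 2 (adjusted p = 0.122 and 0.115) or wt replicate 1 (0.144 and 0.145).

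Genes of the granules that neutrophils build in the bone marrow did not pass. Ltf (lactoferrin), Camp (cathelicidin), Ngp, Elane (neutrophil elastase) and Mpo (myeloperoxidase) differed by 0.04, -0.26, -0.48, 0.23 and -0.25, with adjusted p of 0.845, 0.185, 0.0887, 0.616 and 0.259. These 5 were picked out after their values were seen. Their log2 intensities at 6 h were between 5.01 and 6.51 in the 4 arrays.

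**Figure D4:**
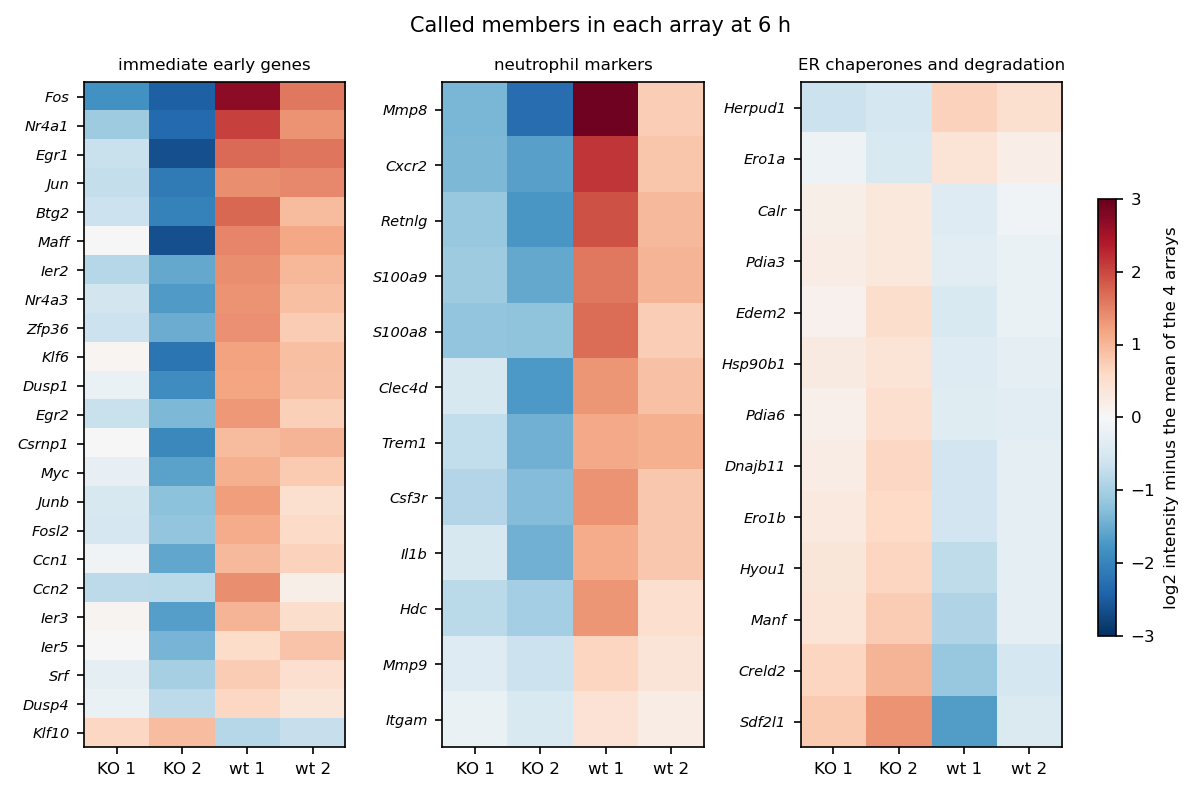
Log2 intensity minus the mean of the 4 arrays (colour) for the called immediate early genes, neutrophil markers and endoplasmic reticulum genes (down the page) in each array at 6 h (columns, KO left of wt). The strongest colour of each line is in KO replicate 2 or wt replicate 1, and the endoplasmic reticulum genes run the opposite way except Herpud1 and Ero1a.

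Chemokines and their receptors guide leukocytes into tissue. Of 36 tested, 11 were called lower in KO liver and 1 higher, with a median of -0.36. The lower ones were Cxcl1, Cxcl10, Cxcl11, Ccl6, Ccl7, Ppbp, Pf4, Ccr2, Cxcr2, Cxcr4 and Ccrl2, and the higher one was Cxcl13, which attracts B cells (1.07 ± 0.23, adjusted p = 0.0235). Lower members numbered 12 without KO replicate 1, 2 without KO replicate 2, 3 without wt replicate 1 and 10 without wt replicate 2, and Cxcl13 was called of these fits only without wt replicate 1 (adjusted p = 0.0374, against 0.0634, 0.099 and 0.0821 without KO replicate 1, KO replicate 2 and wt replicate 2). Cxcl1, a ligand of Cxcr2, had 7.43 and 8.72 in KO liver, against 10.65 and 10.31 in wt liver. The groups did not overlap, the difference was -2.41 ± 0.32 (adjusted p = 0.0041), and the call ended only in the fit of the 4 arrays alone (adjusted p = 0.0536). Its promoter is shown for the site of NF-kB, the main inducer of inflammatory genes, at chr5:90890995-90891294 on the plus strand (GRCm38.p6).
Cxcl1: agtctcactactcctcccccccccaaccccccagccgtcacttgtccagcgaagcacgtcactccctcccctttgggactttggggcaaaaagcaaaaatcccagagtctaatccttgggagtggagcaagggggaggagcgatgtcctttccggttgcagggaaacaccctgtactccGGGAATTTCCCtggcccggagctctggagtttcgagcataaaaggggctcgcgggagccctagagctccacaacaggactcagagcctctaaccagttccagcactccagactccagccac
Capitals mark 1 run that matches the NF-kB site on both strands. The promoters of 3 of the 9 lower chemokine genes with a window held an NF-kB site (Cxcl1, Cxcl10 and Ccrl2), against 4.35% of all promoters. The site was also in 4 of the 17 windows of lower immediate early genes (23.5%). Shares in the chemokine genes that were not called were not counted, so the site is not tied to the fall in KO liver.

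Cxcl2, another ligand of Cxcr2, showed the widest difference of any tested gene and was not called. It had 8.97 and 3.24 in KO liver, against 11.61 and 11.01 in wt liver, and the gap between the KO arrays was wider than that between KO replicate 1 and either wt array. Its difference was -5.20 ± 1.63 (adjusted p = 0.0708); the gene was singled out after its values were seen. Cxcl10, which attracts T cells, had 7.47 and 5.64 in KO liver, against 9.58 and 8.23 in wt liver, a difference of -2.35 ± 0.52 (adjusted p = 0.025) whose call ended without KO replicate 2 (adjusted p = 0.131) or wt replicate 1 (0.189). Ppbp and Pf4, chemokines stored in platelets, differed by -1.93 ± 0.40 (adjusted p = 0.0201) and -1.93 ± 0.33 (adjusted p = 0.0103). Their calls ended without KO replicate 2 (0.129 and 0.0808) or wt replicate 1 (0.156 and 0.0967).

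Among inflammatory cytokines and NF-kB targets, 9 of 38 were lower in KO liver (Il1b, Tnfaip3, Nfkbia, Nfkbiz, Sele, Selp, Ptgs2, Tlr4 and Plaur) and 1 was higher, Il18, with a median of -0.27. Lower members numbered 9 without KO replicate 1, 6 without KO replicate 2, 5 without wt replicate 1 and 10 without wt replicate 2, and higher members numbered 0 without KO replicate 1, 1 without KO replicate 2, 0 without wt replicate 1 and 2 without wt replicate 2. Tnfaip3, the A20 protein that switches NF-kB off again, had 7.38 and 6.56 in KO liver, against 9.72 and 9.25 in wt liver, a difference of -2.51 ± 0.35 (adjusted p = 0.00461). Nfkbiz, a nuclear cofactor of NF-kB, differed by -2.20 ± 0.28 (adjusted p = 0.00316), and both calls held under every alternative tried. Sele, the E-selectin that endothelium presents to leukocytes, had 6.35 and 5.98 in KO liver, against 7.35 and 7.10 in wt liver, a difference of -1.07 ± 0.14 (adjusted p = 0.0035), and lost its call only in the fit of the 4 arrays alone (adjusted p = 0.0536). Il1b, the cytokine interleukin 1 beta, differed by -1.92 ± 0.28 (adjusted p = 0.00572), and Nfkbia, the inhibitor that holds NF-kB in the cytoplasm, by -1.34 ± 0.21 (adjusted p = 0.00713), both without a call when wt replicate 1 was left out (adjusted p = 0.0581 and 0.0689). The AP-1 site TGANTCA was in the promoters of 4 of the 7 lower members with a window (Tnfaip3, Sele, Selp and Plaur), against 7.94% of all promoters. The TATA box was also in 4 of the 7, against 14.2% of all, and the NF-kB site in 2, against 4.35%. Shares in the members of this list that were not called were not counted, so no motif is tied to the fall in KO liver.

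Insulin restrains the transcription factor FOXO1, which drives glucose production in fasting. Of 33 genes of insulin signalling, FOXO1 targets and gluconeogenesis, 9 were lower in KO liver and 0 higher, with a median of -0.46. They were Foxo1, Foxo3, Igfbp1, Irs2, Pck1, G6pc, Pdk4, Trib1 and Klf15. Lower members numbered 13 without KO replicate 1, 6 without KO replicate 2, 3 without wt replicate 1 and 8 without wt replicate 2. Igfbp1, a secreted binding protein for insulin-like growth factors, had 8.46 and 7.68 in KO liver, against 11.66 and 11.08 in wt liver. The groups lay more than 2 log2 units apart, and the difference was -3.30 ± 0.24 (adjusted p = 0.000156). Pck1, the enzyme that commits carbon to gluconeogenesis, had 10.72 and 10.80 in KO liver, against 12.18 and 12.04 in wt liver, a difference of -1.36 ± 0.11 (adjusted p = 0.000243). Klf15, a factor that promotes gluconeogenesis from amino acids, differed by -1.16 ± 0.13 (adjusted p = 0.00163). All 3 calls held under every alternative tried. In untreated liver Pck1 had 12.48 and 12.32 in KO liver, against 12.32 and 12.23 in wt liver, so the KO arrays at 6 h stood below every untreated array.

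Further members were lower with less support. G6pc, the phosphatase that releases glucose, had 10.68 and 11.34 in KO liver, against 11.97 and 11.79 in wt liver, a difference of -0.87 ± 0.19 (adjusted p = 0.0217) that was not called without wt replicate 1 (adjusted p = 0.156). Pdk4, which blocks the entry of pyruvate into the citric acid cycle, had 10.34 and 9.12 in KO liver, against 12.12 and 11.35 in wt liver, a difference of -2.01 ± 0.51 (adjusted p = 0.0376), and Foxo1 differed by -0.86 ± 0.14 (adjusted p = 0.00722). Neither call held without KO replicate 2 (0.224 and 0.0561) or wt replicate 1 (0.241 and 0.07). Among 39 genes that burn fatty acids or answer to PPAR-alpha, 4 were lower (Acaa1a, Acaa1b, Pdk4 and Plin5) and 0 higher, with a median of -0.30. That count was 12 without KO replicate 1, 0 without KO replicate 2, 0 without wt replicate 1 and 8 without wt replicate 2.

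Of 34 genes of hypoxia and glycolysis, 11 were lower in KO liver (Slc2a1, Slc2a3, Hk1, Pfkfb4, Pfkp, Pfkl, Pkm, Ero1a, Slc16a3, Mxi1 and Kdm3a) and 1 was higher, P4ha2, with a median of -0.34. Lower members numbered 12 without KO replicate 1, 5 without KO replicate 2, 5 without wt replicate 1 and 10 without wt replicate 2, and P4ha2 was called in none of these 4 fits nor after quantile normalization, which gave 0 higher members. Pfkp, a phosphofructokinase, had 7.20 and 7.13 in KO liver, against 9.11 and 8.69 in wt liver, a difference of -1.73 ± 0.18 (adjusted p = 0.000857). Pkm, the pyruvate kinase of tissues other than mature hepatocytes, had 7.78 and 7.94 in KO liver, against 9.06 and 9.04 in wt liver, a difference of -1.19 ± 0.11 (adjusted p = 0.000456). Both calls held under every alternative tried. Hexokinase gene Hk1 differed by -1.13 ± 0.17 (adjusted p = 0.00632) and Pfkl, the phosphofructokinase of liver, by -0.80 ± 0.11 (adjusted p = 0.0041), and these calls ended only in the fit of the 4 arrays alone (adjusted p = 0.0598 and 0.0524). Pklr, the pyruvate kinase of hepatocytes, ran the other way and is given with lipid synthesis.

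The p53 protein is activated by DNA damage and binds PML in nuclear bodies. Of 33 genes listed as its targets, 10 were lower in KO liver (Mdm2, Btg2, Gadd45a, Gadd45b, Gadd45g, Bbc3, Tnfrsf10b, Trp53inp1, Plk2 and Plk3) and 1 higher (Ccnd1), with a median of -0.23. Btg2 is also counted among the immediate early genes and Ccnd1 among the cell cycle genes. The part of p53 in these differences was not tested. Lower members numbered 11 without KO replicate 1, 3 without KO replicate 2, 0 without wt replicate 1 and 6 without wt replicate 2, so none was called lower without wt replicate 1. Cdkn1a, the cell cycle inhibitor p21, differed by -0.73 ± 0.65 (adjusted p = 0.501). The kinase gene Plk2 had 7.78 and 7.37 in KO liver, against 9.25 and 8.92 in wt liver, a difference of -1.51 ± 0.22, adjusted p = 0.00567, with 0.0577 without wt replicate 1. Plk3 differed by -2.05 ± 0.39, adjusted p = 0.0144, with 0.106 without wt replicate 1. Gadd45g, a growth arrest gene, had 8.74 and 8.09 in KO liver, against 9.95 and 9.94 in wt liver, a difference of -1.53 ± 0.34 (adjusted p = 0.0247), and it was not called without KO replicate 2, wt replicate 1 or wt replicate 2 (0.157, 0.144 and 0.0602). In untreated liver Gadd45g stood the opposite way, at 8.59 and 9.63 in KO liver, against 6.11 and 5.70 in wt liver.

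Chaperones and export factors of the endoplasmic reticulum (ER) fold secreted proteins and remove failed ones. They formed the list with most members higher in KO liver: of 27 tested, 11 were higher and 2 lower, where 4.09% of all tested genes were higher, with a median of 0.40. The higher ones were Hsp90b1, Calr, Pdia3, Pdia6, Dnajb11, Sdf2l1, Creld2, Manf, Hyou1, Edem2 and Ero1b. Higher members numbered 6 without KO replicate 1, 0 without KO replicate 2, 0 without wt replicate 1 and 8 without wt replicate 2. The median difference stayed near its value, at 0.34 without KO replicate 2 and 0.36 without wt replicate 1, so the calls were lost while the median changed little.

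Sdf2l1, a cofactor of the chaperone BiP, had 9.99 and 10.57 in KO liver, against 7.53 and 8.78 in wt liver, a difference of 2.12 ± 0.58 (adjusted p = 0.0491). Creld2, a secreted ER stress protein, had 10.55 and 10.94 in KO liver, against 8.78 and 9.38 in wt liver, a difference of 1.66 ± 0.42 (adjusted p = 0.0374). In both, the wt arrays were farther from each other than the KO arrays were. Hsp90b1, the chaperone GRP94, differed by 0.66 ± 0.14 (adjusted p = 0.0212), Pdia3 by 0.54 ± 0.13 (adjusted p = 0.0317) and Pdia6, another disulfide isomerase, by 0.66 ± 0.17 (adjusted p = 0.0373). Without KO replicate 2 these 5 genes had an adjusted p of 0.128 to 0.225, and without wt replicate 1 an adjusted p of 0.148 to 0.3. Sdf2l1 was also not called without KO replicate 1 (adjusted p = 0.0684), and neither were Creld2 (0.0565) and Pdia3 (0.0511), while Pdia6 was not called without wt replicate 2 (0.0766). Hspa5, which encodes BiP itself, had 12.88 and 12.70 in KO liver, against 12.60 and 12.71 in wt liver, arrays that overlapped, and differed by 0.14 ± 0.16 (adjusted p = 0.607). Derl3, a channel subunit for removing misfolded proteins and no member of the list, had 7.86 and 8.44 in KO liver, against 6.47 and 6.22 in wt liver. It differed by 1.80 ± 0.18 (adjusted p = 0.000777) under a call that held in every alternative tried, as did that of Herpud1. Herpud1, which organises the same removal complex, ran the opposite way with 10.27 and 10.38 in KO liver, against 11.61 and 11.39 in wt liver, a difference of -1.18 ± 0.11 (adjusted p = 0.000716).

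The ER stress element, CCAAT followed after 9 bases by CCACG, is bound by NF-Y and ATF6. The search was added after the values were seen and covered both strands. The element was in the promoters of 5 of the 9 genes called higher that had a window (Hsp90b1, Calr, Pdia6, Creld2 and Ero1b), of 4 of the 12 not called (Hspa5, Canx, Dnajc3 and Syvn1) and of 0 of the 2 called lower, against 0.13% of all 27018 promoters. Elements of 3 genes that were higher and of Hspa5, which was not called, are printed with 10 bases on each side, 5′ to 3′ on the strand that reads the element, with both parts in capitals (RefSeq, GRCm38.p6).
Hsp90b1, site 1 (chr10:86705628-86705666, minus strand): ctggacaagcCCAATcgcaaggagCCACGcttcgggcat
Hsp90b1, site 2 (chr10:86705523-86705561, plus strand): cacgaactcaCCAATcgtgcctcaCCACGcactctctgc
Pdia6 (chr12:17266481-17266519, plus strand): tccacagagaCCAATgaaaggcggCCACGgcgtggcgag
Creld2 (chr15:88819510-88819548, minus strand): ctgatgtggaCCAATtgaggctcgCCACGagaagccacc
Hspa5 (chr2:34772015-34772053, plus strand): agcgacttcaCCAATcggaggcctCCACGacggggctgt
The capitals are identical by construction, and the genes that carry them differed at 6 h by 0.66 for Hsp90b1, 0.66 for Pdia6, 1.66 for Creld2 and 0.14 for Hspa5.

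The integrated stress response halts bulk translation and induces amino acid genes. Of 31 members 4 were lower in KO liver (Ddit4, Ppp1r15a, Slc7a1 and Eif2ak3) and 0 higher, with a median of -0.11. The count was 9 without KO replicate 1, 0 without KO replicate 2, 1 without wt replicate 1 and 3 without wt replicate 2, and 1 member was higher without KO replicate 2. Eif2ak3, the ER kinase PERK, had 8.90 and 8.32 in KO liver, against 9.81 and 9.93 in wt liver, a difference of -1.26 ± 0.23 (adjusted p = 0.0136), not called without KO replicate 2 or wt replicate 1 (adjusted p = 0.0984 and 0.0837). Among 20 heat shock genes 0 were called in either direction by limma, with 3 at an unadjusted p under 0.05 and a median of 0.13.

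Genes of fatty acid synthesis, which insulin induces through SREBP1c, were higher in 5 of 30 (Acly, Elovl6, Pklr, Tkfc and Nr1h3) and lower in 1 (Lpin1), with a median of 0.07. Higher members numbered 7 without KO replicate 1, 0 without KO replicate 2, 0 without wt replicate 1 and 6 without wt replicate 2. Elovl6, a fatty acid elongase, had 10.59 and 11.27 in KO liver, against 8.59 and 9.39 in wt liver, a difference of 1.94 ± 0.29 (adjusted p = 0.00617). Tkfc, a kinase of fructose breakdown, had 11.49 and 11.81 in KO liver, against 9.91 and 10.30 in wt liver, a difference of 1.55 ± 0.23 (adjusted p = 0.00572). Aacs, which makes acetoacetyl-CoA for sterols and was the 1 of 25 cholesterol genes called, differed by 2.09 ± 0.44 (adjusted p = 0.0205). In each of these genes the wt and KO arrays were separate, and Pklr differed by 1.76 ± 0.46 (adjusted p = 0.0413) and Acly, ATP citrate lyase, by 1.02 ± 0.21 (adjusted p = 0.0196). None of these 5 was called without KO replicate 2 (adjusted p of 0.0506 to 0.225) or wt replicate 1 (adjusted p of 0.0527 to 0.265).

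The hepcidin genes moved in opposite directions. Hamp, the hormone that limits iron export, had 12.67 and 12.76 in KO liver, against 11.81 and 11.47 in wt liver, a difference of 1.08 ± 0.14 (adjusted p = 0.0041). Hamp2, a mouse paralog whose role in iron control is not established, had 6.30 and 6.86 in KO liver, against 9.83 and 9.58 in wt liver, a difference of -3.13 ± 0.26 (adjusted p = 0.000289). Both calls held under every alternative tried, but the genes are close copies of each other and their probe signals are uncertain to that extent. Hamp in untreated liver had 12.49 and 12.54 in KO liver, against 12.71 and 12.72 in wt liver. Id1 and Smad6, which like Hamp are induced by bone morphogenetic proteins, differed by 1.87 ± 0.33 (adjusted p = 0.0115) and 0.84 ± 0.14 (adjusted p = 0.00852). Id1 was not called without KO replicate 2 or wt replicate 1 (adjusted p = 0.0857 and 0.106) and Smad6 without KO replicate 2 (0.0669). Smad7, of the same class, differed by 1.27 ± 0.36 (adjusted p = 0.0541). These genes were taken from wider lists. Of 31 genes of heme and iron 3 were higher and 1 lower, with a median of 0.13. Of 30 genes of EGF receptor ligands and growth signalling 3 were higher and 2 lower, with a median of -0.11. Fewer members of both lists were called without KO replicate 2 or without wt replicate 1.

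Cyclin D1 (Ccnd1), which carries hepatocytes from rest into the cell cycle, had 11.07 and 11.47 in KO liver, against 8.68 and 9.66 in wt liver, a difference of 2.10 ± 0.29 (adjusted p = 0.00437), with a call that ended only in the fit of the 4 arrays alone (adjusted p = 0.0517). With it, 6 of 38 genes of DNA replication and the cell cycle were higher (Ccnd1, Cdk4, Mcm2, Mcm3, Mcm4 and Rrm1) and 0 lower, at a median of -0.05. That count was 6 without KO replicate 1, 1 without KO replicate 2, 1 without wt replicate 1 and 4 without wt replicate 2. Mcm2, a subunit of the replicative helicase, differed by 0.98 ± 0.16 (adjusted p = 0.00829) and was not called without KO replicate 2 or wt replicate 1 (0.0683 and 0.0801).

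NRF2 drives genes that respond to electrophiles such as the acetaminophen metabolite. Of 46 of its targets and glutathione genes, 5 were higher (Pgd, Gstm1, Gstm3, Abcc4 and Ugdh) and 0 lower, with a median of 0.19. Higher members numbered 8 without KO replicate 1, 1 without KO replicate 2, 1 without wt replicate 1 and 6 without wt replicate 2. Lower members numbered 3 without KO replicate 1 and 1 without wt replicate 2. Abcc4, a pump that exports bile acids and drug conjugates from hepatocytes to blood, had 9.49 and 9.65 in KO liver, against 7.83 and 7.72 in wt liver, 3.46 times higher in KO liver. Its difference of 1.79 ± 0.17 (adjusted p = 0.000613) was called under every alternative tried. Ugdh, which makes the sugar donor for glucuronidation, differed by 0.60 ± 0.14 (adjusted p = 0.0269) and was not called without KO replicate 2 or wt replicate 1 (adjusted p = 0.163 and 0.175). Among 31 genes of acetaminophen disposition 3 were higher (Ugdh, Gstm1 and Abcc4), where 4.09% of all tested genes were higher. Another 2 were lower, a share near the 4.93% over all genes, and these were the kinases Map3k5 and Mapk8 of the JNK pathway. Without KO replicate 2 or wt replicate 1 the counts were 1 higher and 0 lower, with adjusted p of 0.0574 and 0.0803 for Map3k5 and 0.106 and 0.121 for Mapk8. Cyp2e1, the main oxidase of the drug, differed by -0.01 ± 0.09 (adjusted p = 0.945).

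Interferon response genes were higher in 8 of 43 (Stat2, Ifi35, Ddx58, Irgm1, Xaf1, Ifitm3, Rtp4 and Zbp1) and lower in 1 (Cxcl10), with a median of 0.29. Higher members numbered 5 without KO replicate 1, 2 without KO replicate 2, 2 without wt replicate 1 and 6 without wt replicate 2. Lower members numbered 5 without wt replicate 2, where the median was 0.17. The list's median difference was also above 0 at the other times, at 0.19 at 2 h and 0.24 in untreated liver. Irgm1, a GTPase of interferon-induced immunity, had 10.11 and 10.11 in KO liver, against 9.09 and 9.06 in wt liver, a difference of 1.03 ± 0.13 (adjusted p = 0.00307). Ddx58, the RNA sensor RIG-I, had 9.55 and 9.74 in KO liver, against 8.79 and 8.68 in wt liver, a difference of 0.91 ± 0.13 (adjusted p = 0.00437). In both genes the arrays of a genotype lay close together, and both calls held under every alternative tried. Of 25 genes of PML bodies and SUMO 1 was called, the SUMO protease Senp7 (0.46 ± 0.11, adjusted p = 0.0306). That share is near the 4.09% of all tested genes called higher. Senp7 lost its call without KO replicate 1, KO replicate 2 or wt replicate 1.

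**Figure D5:**
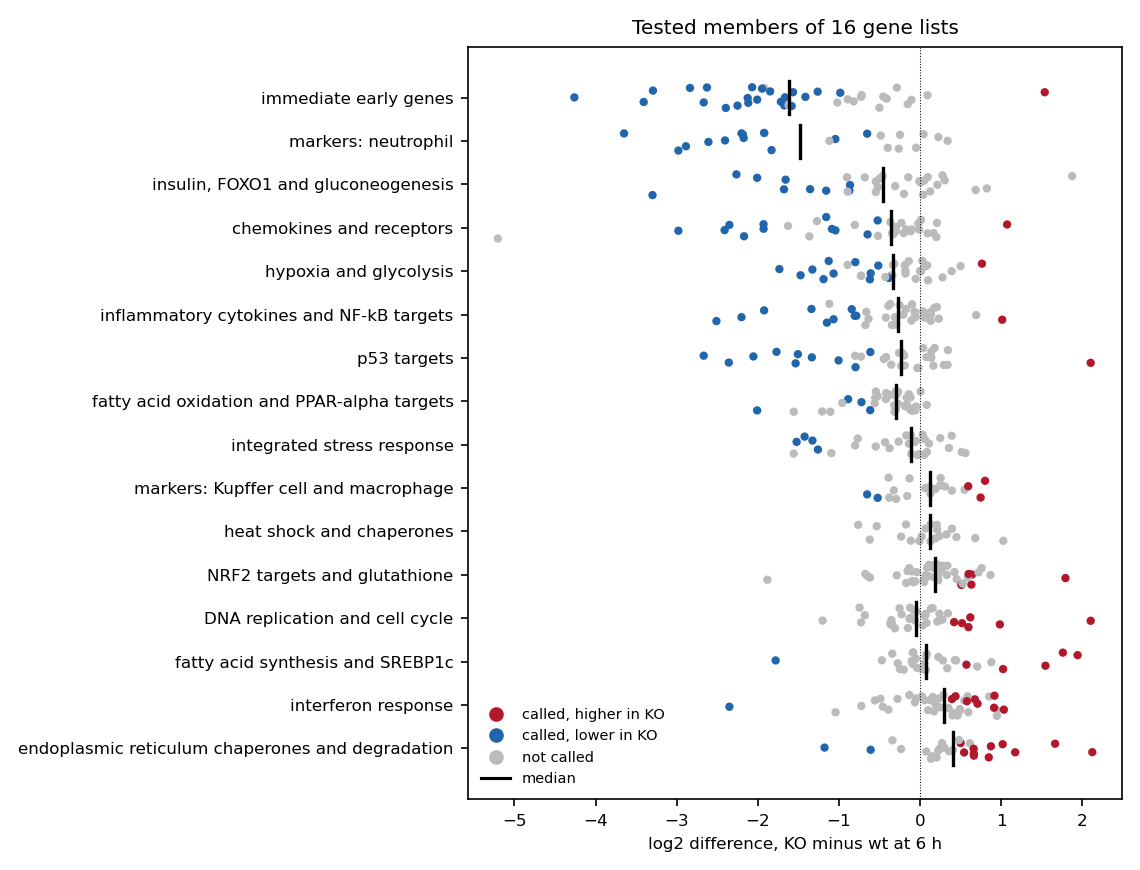
Log2 difference of each tested member between KO and wt liver at 6 h (horizontal axis) in 16 gene lists (down the page), coloured by call, with a black line at the list's median. Immediate early genes and neutrophil markers have medians of -1.62 and -1.47, and the endoplasmic reticulum list has a median of 0.40.

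Genes outside the lists stood among the largest differences. Gprc5a, an orphan receptor induced by retinoic acid, had 6.26 and 5.69 in KO liver, against 10.56 and 9.43 in wt liver, a difference of -4.02 ± 0.34 (adjusted p = 0.000323). Its arrays at 2 h and untreated lay between 4.93 and 5.88, so the high values were those of wt liver at 6 h, while KO replicate 2 at 6 h lay within that range and KO replicate 1 just above it. Adamts4, a protease that cleaves proteoglycans, had 6.73 and 5.49 in KO liver, against 9.69 and 8.79 in wt liver, a difference of -3.13 ± 0.44 (adjusted p = 0.00496). Cetn4, which encodes a centrin, had 4.64 and 4.26 in KO liver, against 7.97 and 8.18 in wt liver, a difference of -3.62 ± 0.17 (adjusted p = 9.35e-06), and it stood apart at 2 h as well, with 5.20 and 5.62 in KO liver, against 8.93 and 9.02 in wt liver, but not in untreated liver. These 3 calls held under every alternative tried. Akap12, a scaffold of protein kinase A, differed by -3.68 ± 0.53 (adjusted p = 0.00551) and Depp1, a FOXO-induced gene, by -4.09 ± 0.59 (adjusted p = 0.00535), and neither was called without wt replicate 1 (adjusted p = 0.0537 and 0.0529). Thbs1, the matrix protein thrombospondin 1, differed by -3.59 ± 0.71 (adjusted p = 0.0166), with no call without KO replicate 2 or wt replicate 1 (0.116 and 0.122).

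Slc1a4, a transporter of neutral amino acids and a member of the perivenous list given at the end, had 8.75 and 8.64 in KO liver. It had 6.07 and 6.94 in wt liver. That is 4.57 times higher in KO liver and the largest rise among called genes (2.19 ± 0.22, adjusted p = 0.000857). Pfn2, a profilin that binds actin, had 7.42 and 7.66 in KO liver, against 5.94 and 6.24 in wt liver, a difference of 1.45 ± 0.18 (adjusted p = 0.0025). Both calls held under every alternative tried. Slc17a4, a transporter of organic anions, differed by 1.54 ± 0.20 (adjusted p = 0.00333) and the phosphatase-family gene Hdhd3 by 1.55 ± 0.23 (adjusted p = 0.00626), and their calls ended only in the fit of the 4 arrays alone (adjusted p = 0.0525 and 0.0724). Nnmt, which methylates nicotinamide, had 9.43 and 10.67 in KO liver, against 7.92 and 7.97 in wt liver, a difference of 2.10 ± 0.43 (adjusted p = 0.0195) not called without KO replicate 2 or wt replicate 1 (0.125 and 0.124). Its difference was 1.89 at 2 h and 1.52 in untreated liver, and neither passed the test (adjusted p = 0.0552 and 0.9999).

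Markers of other cells are read against the 4.09% of all tested genes called higher and the 4.93% called lower. Of 21 Kupffer cell and macrophage markers 3 were higher (Adgre1, Lyz1 and Lyz2) and 2 lower (Ccr2 and Itgam), with a median of 0.13 and summed intensities of 8732 and 8752 in KO liver, against 7231 and 8042 in wt liver. These were larger shares than over all genes, but without wt replicate 1 the list had 0 higher and 0 lower, and without KO replicate 2 it had 2 higher and 0 lower. Adgre1, the F4/80 antigen, differed by 0.80 ± 0.15 (adjusted p = 0.0136) and was not called without KO replicate 2 or wt replicate 1 (adjusted p = 0.0879 and 0.107). Sinusoidal endothelium had 5 of 27 markers lower (Pecam1, Cdh5, Flt1, Wnt9b and Rspo3), with a median of -0.09. Bile duct markers were lower in 4 of 12 (Krt19, Krt7, Cldn7 and Cd24a), and stellate cell and fibroblast markers were called in 0 of 24 by limma, with a median of -0.19. The endothelial and bile duct shares lay above that of all genes. Without KO replicate 2, 1 endothelial and 0 bile duct markers were lower, and without wt replicate 1, 0 of either. Lymphocytes had 1 of 21 markers lower (Cd79b), a share close to that of all genes.

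Erythroid markers were lower in 2 of 6, Alas2 and Slc4a1. Alas2, the heme synthesis enzyme of red cell precursors, had 7.64 and 7.62 in KO liver, against 10.63 and 9.93 in wt liver, a difference of -2.66 ± 0.30 (adjusted p = 0.0017) that was called under every alternative tried.

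To see which differences belonged to 6 h, the KO minus wt difference at 6 h was set against that in untreated liver and at 2 h in the same fit. Against untreated liver it differed for 83 genes (0.487% of those tested), 15 upward and 68 downward. Leaving out predicted genes and small RNAs, the largest downward were Gadd45g (-4.74), Gprc5a (-4.01), Myc (-3.97), Fos (-3.95) and Cetn4 (-3.33). In Gadd45g and Myc much of this came from untreated liver, where Myc had 8.09 and 9.36 in KO liver, against 6.33 and 6.88 in wt liver. The largest upward were Id1 (2.82), Arrdc3 (2.26), Slc1a4 (1.95), Abcc4 (1.84) and Slc17a4 (1.73). Arrdc3, an arrestin-domain protein, was not called at 6 h itself (0.69 ± 0.23, adjusted p = 0.0879). The count was 286 without KO replicate 1, 46 without KO replicate 2, 43 without wt replicate 1 and 223 without wt replicate 2.

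Against 2 h the difference had changed for 1198 genes (7.03%), 847 upward and 351 downward. After quantile normalization it was 635, with 42.8% upward in place of 70.7%. The median KO minus wt difference over all tested genes was -0.0988 at 2 h, beside 0.0078 at 6 h. The part of this offset in the balance of upward and downward genes was not tested. The largest downward were Fos (-6.02), Akap12 (-5.12), Phlda1 (-4.71), Mmp8 (-4.49) and Gprc5a (-4.48). Phlda1, an apoptosis regulator, was not called at 6 h (-1.18 ± 0.54, adjusted p = 0.183), and at 2 h it had 11.83 and 10.39 in KO liver, against 7.48 and 7.69 in wt liver. The largest upward were Slc1a4 (2.79), Ccnd1 (2.73), Hdhd3 (2.60), Pfn2 (2.30) and Chic1 (2.04). Of the 37 immediate early genes 23 had changed against 2 h and 5 against untreated liver, and of the 22 neutrophil markers 9 and 5. With 1 array at 6 h left out the count against 2 h was 1839 without KO replicate 1, 139 without KO replicate 2, 79 without wt replicate 1 and 1356 without wt replicate 2. These comparisons share the 6 h arrays with the one above and are not independent of it.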

How the data were processed

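Total RNA of mouse liver was measured on 12 arrays (Affymetrix Mouse Gene 1.1 ST). Per the submitters' processing notes, the authors used RMA in Affymetrix Expression Console, and the values deposited are intensities, normalized and not on a log scale. Software versions and a genome build are not given in the sources used here. Of 35556 probe sets, 21218 had 1 gene symbol (18820 genes), 1881 several and 12457 none. Values were taken to log2 with no pseudocount, and each gene was represented by its brightest probe set, which left 17052 genes at a mean of at least 5.

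Differences were fitted with limma 3.58.1 (lmFit and eBayes, R 4.3.3) on 6 group means over all 12 arrays, two-sided, with Benjamini-Hochberg adjustment, after a test on simulated data. The title of 1 wt array at 2 h is shortened, and its group came from its source name.

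The text names Pml, the 15 largest called rises and falls with KO and wt arrays apart (predicted genes, small RNAs, receptor and immunoglobulin segments left out), up to 6 members of each list with the smallest p, and the 5 largest changes each way against untreated liver and 2 h, or fewer. Cxcl2, Hspa5, Cdkn1a, Cyp2e1 and the 5 granule genes fall outside that rule and were chosen after their values were seen. The comparison and the gene lists were chosen with earlier results of these data known. Alternatives changed the filter, normalization, probe set rule, variance model, log scale and arrays. Counts of list members without each array, the ER stress element and the GC box were added after seeing the data. Promoters came from RefSeq, GRCm38.p6.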

Additional observations from a re-analysis of the deposited data

Results flagged for a closer look

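For some genes named above, the KO minus wt difference itself differed between time points in the test of that difference. The values below are on the log2 scale, from limma with Benjamini-Hochberg adjustment over 17052 genes, and each rests on 2 arrays a group, with no group large enough to look for single arrays that stand apart.

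The difference at 6 h lay below that in untreated liver for Gadd45g (-4.74), Gprc5a (-4.01), Myc (-3.97), Fos (-3.95), Cetn4 (-3.33), Cxcr2 (-3.22), Igfbp1 (-3.13), Alas2 (-2.68), S100a9 (-2.54), S100a8 (-2.50), Hamp2 (-2.43), Ier2 (-2.43), Trem1 (-2.37), Zfp36 (-2.36), Egr2 (-2.00), Pfkp (-1.84), Pck1 (-1.48), Klf15 (-1.24), Herpud1 (-1.20), Pkm (-1.12) and Sele (-1.09), with adjusted p of 0.000371 to 0.0452. It lay above that in untreated liver for Id1 (2.82), Arrdc3 (2.26), Slc1a4 (1.95), Abcc4 (1.84), Slc17a4 (1.73), Pfn2 (1.50), Derl3 (1.47) and Hamp (1.28), with adjusted p of 0.0109 to 0.0391.

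The difference at 6 h lay below that at 2 h for Fos (-6.02), Akap12 (-5.12), Phlda1 (-4.71), Mmp8 (-4.49), Gprc5a (-4.48), Egr2 (-4.48), Myc (-4.25), Nr4a1 (-3.97), Depp1 (-3.97), Adamts4 (-3.94), Egr1 (-3.65), Cxcl10 (-3.47), Jun (-3.43), Retnlg (-3.32), Cxcr2 (-3.26), Ier2 (-3.25), Btg2 (-3.02), Hamp2 (-2.95), Igfbp1 (-2.82), Cxcl1 (-2.59), Nfkbiz (-2.57), Tnfaip3 (-2.48), Plk3 (-2.48), S100a9 (-2.48), Zfp36 (-2.46), Csf3r (-2.43), S100a8 (-2.35), Trem1 (-2.13), Eif2ak3 (-2.04), Pfkp (-1.46), Plk2 (-1.35), Pck1 (-1.18), Pkm (-1.10), Hk1 (-1.03), Sele (-1.02), Herpud1 (-0.89) and Pfkl (-0.67), with adjusted p of 0.000655 to 0.0425. It lay above that at 2 h for Slc1a4 (2.79), Ccnd1 (2.73), Hdhd3 (2.60), Pfn2 (2.30), Chic1 (2.04), Elovl6 (1.86), Derl3 (1.76), Abcc4 (1.74), Slc17a4 (1.67), Tkfc (1.44), Mcm2 (1.38), Cxcl13 (1.30), Hamp (1.06), Adgre1 (0.93), Ddx58 (0.90) and Senp7 (0.89), with adjusted p of 0.00384 to 0.045. Without KO replicate 2 at 6 h the genes that differed from 2 h numbered 139 in all, and without wt replicate 1 at 6 h 79, against 1198 with all arrays.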

How the results depend on the processing

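The count of 1538 genes at 6 h fell to 142 in the fit of the 4 arrays at 6 h alone, which has fewer residual degrees of freedom, and ran from 172 to 1691 with 1 array left out. It was 1462 with no filter on the mean, 1388 at a mean of at least 7 and 1525 after quantile normalization, and higher genes made up 59.4% and 50.2% of the last 2, against 45.4%. The count against untreated liver (83) ran from 43 to 286, and that against 2 h (1198) from 79 to 1839, with 1 array left out. The count against 2 h was 635 after quantile normalization, with 42.8% upward, against 70.7%. The cause was not tested. Pml, at -0.749 with an adjusted p of 0.0715, passed with the replicate block (-0.749, adjusted p = 0.0399), and its difference ran from -0.784 to -0.713 with 1 array left out. The arrays share replicate numbers but nothing pairs them (correlation of deviations -0.023 over genes). The replicate block gave 1609, 72 and 1526 genes for the 3 counts. Over 252 named genes and 3208 refits, 2709 kept direction and side of the threshold, 423 lost and 76 gained a call, and 0 reversed. The 2709 include refits of genes that were not called with all arrays and stayed so. They are therefore not a count of calls that held. Of the calls, 104 were lost without KO replicate 2, 115 without wt replicate 1 and 119 with the 4 arrays alone. The median over all genes moved to 0.0679 at most. With 2 arrays a group, small differences and dim genes could not be resolved.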

Other observations

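Small nucleolar and small nuclear RNA genes, which guide the modification and splicing of other RNAs, were lower in KO liver at 6 h. Of 68 tested, 32 were called lower and 0 higher, with a median difference of -0.43, where 4.93% of all tested genes were lower. Of 225 microRNA genes 13 were lower and 2 higher, with a median of -0.09. These genes were counted as classes and not named one by one, and RNA quality was not measured here.

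Other gene groups are given beside the 4.09% of all tested genes called higher and the 4.93% called lower. Of 38 proteasome genes 4 were higher and 0 lower, a larger share than over all genes, with 1 higher without KO replicate 2 or without wt replicate 1. Of 49 genes of ribosome biogenesis 2 were higher and 1 lower. Of 46 genes of the mitochondrial respiratory chain 2 were higher and 0 lower. Of 33 bile acid genes 1 was higher and 1 lower, and of 39 coagulation genes 2 were lower and 0 higher. These shares were near or below those over all genes. The ribosome biogenesis list still leaned upward, with a median of 0.21 and 41 of 49 differences above 0. Both KO arrays lay above both wt arrays in 30 of the 49, against 29.7% of all tested genes. Of 22 clock genes 2 were lower and 0 higher, with a median of -0.35. The clock median was -0.32 without KO replicate 2 and -0.27 without wt replicate 1, and fewer clock genes were called in those fits. Among 31 perivenous genes 4 were higher (Slc1a4, Axin2, Tbx3 and Lect2) and 1 lower (Csad), and among 29 periportal genes 1 was higher (Aldh1b1) and 4 lower (Pck1, G6pc, Cdh1 and Tat). The balance in the perivenous list rested on single arrays: it was 2 higher and 3 lower without KO replicate 1, and 1 higher and 3 lower without wt replicate 2. The medians of both lists were near 0, at -0.01 for perivenous and -0.02 for periportal genes. Of 39 genes of IL-6 signalling and acute phase 2 were higher and 5 lower (median 0.10). Of 32 cell death regulators 2 were higher and 5 lower (median -0.07). Of 37 nuclear receptors and hepatocyte factors 5 were higher and 1 lower (median 0.11). The last counts come from the fit of all 12 arrays. Fewer members of each of these lists were called without KO replicate 2 or without wt replicate 1. The medians in those fits were 0.03 and 0.07 for IL-6 signalling and acute phase. They were -0.11 and -0.07 for cell death regulators, and 0.04 and 0.07 for nuclear receptors and hepatocyte factors.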
